A study of Mus musculus with 8 samples.

Results

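The brush border hydrolases, which digest food at the surface of the gut, were followed by symbol through 8 bulk libraries: Sis, Lct, Mgam, Treh, Alpi, Anpep, Dpp4, Mep1a, Mep1b and Ggt1, which are 10 of the 52195 genes in the table. The members were picked by symbol, and all 10 were found. The study sequenced polyadenylated RNA of whole kidney, liver, lung and small intestine, with 2 libraries per tissue, and used these bulk profiles beside single-cell data from the same tissues. All libraries came from untreated male C57BL/6J mice (C57BL/6 in the labels) between 6 and 10 weeks of age, 4 tissues being taken from each mouse. The 2 libraries of a tissue are from different mice. The labels do not say which libraries of different tissues share a mouse, nor which stretch of the small intestine was sampled.

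The brush border is the layer of densely packed microvilli on the luminal face of absorptive cells. In the intestine its anchored enzymes cut disaccharides, small starch fragments and short peptides into the sugars and amino acids that neighbouring carriers take up. The proximal tubule of the kidney carries a brush border as well, where several of the same peptidases act on filtered peptides and glutathione. The question the tissue comparison allows is which of these enzymes were at a high level in the intestine alone, and which were shared with the kidney.

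The small intestine and kidney libraries held the markers of their labels. The summed level of 6 enterocyte markers was between 10215.7 and 10691.3 FPKM (fragments scaled to gene length and to the depth of the library) in small intestine and at most 178 FPKM elsewhere. The summed level of 6 proximal tubule markers was between 1279 and 1832 FPKM in kidney and at most 43.7 FPKM elsewhere. Between 9399655 and 22132985 reads per library fell on genes, as worked back from the step size of low values, with the kidney libraries the deepest. The 16328 genes that reached 1 FPKM in no fewer than 2 libraries were tested with limma on log2(FPKM + 1), and a gene was called where the Benjamini-Hochberg adjusted p was under 0.05 and the log2 difference over 1 in size. All 10 members passed this filter, but Sis and Lct reached 1 FPKM in no other tissue and Alpi in 1 lung library only, so these 3 passed because of the intestine libraries. The scale matters for the background: the median of all genes differed by 0.18 between small intestine and kidney, by -0.31 between kidney and the mean of liver and lung and by -1.13 between liver and lung, and median-of-ratios scaling brought these to 0.01, -0.08 and -0.06. Of the calls, 63.7% were higher in small intestine than in kidney, against 52.5% with median-of-ratios scaling and 45.8% without mitochondrial genes and pseudogenes. For kidney against the mean of liver and lung the share called higher was 36.6%, 51.2% and 60.5% on the same scales, and the share higher in liver than in lung was 11.5%, 48.0% and 13.1%. All members are therefore given below with their levels in every library.

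The sequence just before the start of each gene is given first for 4 members, because their levels lay at the extremes: Sis, Lct and Alpi were high in intestine alone, and Mep1a was highest in kidney. The letters were taken from RefSeq (GRCm38.p6), 250 bases up to the RefSeq start and on the strand of the gene. The regions are chr3:72967864-72968113 for Sis, chr1:128328319-128328568 for Lct, chr1:87101607-87101856 for Alpi and chr17:43502774-43503023 for Mep1a, all on the minus strand. The RefSeq start of Mep1a lies within the gene as GENCODE annotates it, so the last 39 bases shown for Mep1a are inside that gene. Capitals mark matches on either strand to 4 short motifs of factors known from intestinal promoters. The HNF1 motif was searched as the letters GTTAAT. The motif of the CDX factors was searched as TTTATNG, where N is any base. That of the zinc-finger factors including Gata4 was searched as AGATAA. The HNF4 motif was searched as CAAAGTC.
Sis: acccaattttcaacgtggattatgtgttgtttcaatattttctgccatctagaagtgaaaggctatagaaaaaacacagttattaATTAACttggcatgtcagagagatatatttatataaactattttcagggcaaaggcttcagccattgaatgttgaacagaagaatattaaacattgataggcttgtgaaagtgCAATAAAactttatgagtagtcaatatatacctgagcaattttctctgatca
Lct: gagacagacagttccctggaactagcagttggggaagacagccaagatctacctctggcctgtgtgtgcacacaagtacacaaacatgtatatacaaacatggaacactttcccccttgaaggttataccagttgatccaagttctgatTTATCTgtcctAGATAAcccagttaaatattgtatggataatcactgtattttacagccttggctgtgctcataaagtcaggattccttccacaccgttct
Alpi: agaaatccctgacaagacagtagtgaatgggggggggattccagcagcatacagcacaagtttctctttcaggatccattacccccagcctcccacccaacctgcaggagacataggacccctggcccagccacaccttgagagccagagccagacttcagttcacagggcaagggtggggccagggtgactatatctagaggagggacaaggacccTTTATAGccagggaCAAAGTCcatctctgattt
Mep1a: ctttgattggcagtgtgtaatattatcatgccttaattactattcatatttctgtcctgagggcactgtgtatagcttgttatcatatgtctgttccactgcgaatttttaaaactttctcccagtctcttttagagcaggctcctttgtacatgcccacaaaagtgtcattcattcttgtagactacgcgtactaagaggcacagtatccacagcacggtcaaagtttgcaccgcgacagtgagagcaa
The Sis sequence held the HNF1 letters between 165 and 160 bases before the start and the CDX letters between 52 and 46 bases before it. The Lct sequence held the GATA letters at 2 places, from 101 to 96 and from 90 to 85 bases before the start. The Alpi sequence held the CDX letters from 33 to 27 and the HNF4 letters from 19 to 13 bases before the start. The Mep1a sequence held none of the 4.

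RefSeq gave 12 promoters for 9 of the 10 members, 4 of them for the 4 starts of Ggt1. Those of Ggt1 and Anpep lie wholly inside the gene as GENCODE annotates it. HNF1 letters were present in 1 of the 12 promoters (Sis), CDX letters in 3 (Sis, Alpi and Dpp4), GATA letters in 4 (Lct, Mgam, Dpp4 and 1 start of Ggt1) and HNF4 letters in 3 (Treh, Alpi and another start of Ggt1). Per promoter, among all 32536 of the same length, the shares were 6.47%, 9.74%, 9.97% and 3.87%. Of the 3 CDX matches, 2 also hold TATAAA, the letters of the common TATA box, which the CDX letters overlap. Anpep and Mep1a held none of the 4 motifs at the starts searched. A match describes the letters and says nothing of binding.

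The disaccharidases and trehalase were at a high level in small intestine. Sis, sucrase-isomaltase, which splits sucrose and starch fragments, lies on chromosome 3 (72888557 to 72967863, minus strand, GRCm38 as annotated by GENCODE M21). Its level was 217 and 346 FPKM in small intestine, 0.04998 and 0.232 in kidney, 0.336 and 0.389 in liver, and 0.686 and 0.140 in lung. The lowest intestine library stood far above every other library, and the lung values spanned those of liver and overlapped those of kidney. The log2 difference between small intestine and kidney was 7.92 (SE 0.28, limma adjusted p = 6.95e-07).

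Lct, lactase, which splits milk sugar, lies on chromosome 1 (128284756 to 128328318, minus strand). Its level was 127 and 131 FPKM in small intestine, 0.0582 and 0.117 in kidney, 0.119 and 0.151 in liver, and 0.320 and 0.0502 in lung. These adult intestines thus still held lactase RNA, and the 2 intestine libraries were closer to each other for Lct than for any other member. The log2 difference from kidney was 6.90 (SE 0.18, limma adjusted p = 3.68e-07).

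Mgam, maltase-glucoamylase, which trims glucose from starch fragments, lies on chromosome 6 (40628831 to 40769123, plus strand). Its level was 118 and 187 FPKM in small intestine, 8.44 and 3.50 in kidney, 6.34 and 6.12 in liver, and 0.459 and 0.148 in lung. Kidney and liver overlapped at a low level, and lung lay below both. The log2 difference between small intestine and kidney was 4.52 (SE 0.36, limma adjusted p = 3.70e-05).

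Treh, trehalase, which splits the sugar of fungi and insects, lies on chromosome 9 (44673233 to 44686305, plus strand). Its level was 235 and 181 FPKM in small intestine, 35.0 and 31.8 in kidney, 0.480 and 0.662 in liver, and 0.500 and 0.157 in lung. Treh was the disaccharidase with a clear kidney level: kidney lay below intestine by 2.59 on the log2 scale (SE 0.20, limma adjusted p = 3.00e-05) and far above liver and lung, which overlapped.

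Alpi, intestinal alkaline phosphatase, which removes phosphate from lipids and bacterial products, lies on chromosome 1 (87098002 to 87101606, minus strand). Its level was 639.7 and 474 FPKM in small intestine, 0.0998 and 0.494 in kidney, 0.514 and 0.456 in liver, and 1.40 and 0.0689 in lung. The last value rests on 2 reads, under the floor of 3 reads, so Alpi was not detectable there at this depth. The difference between small intestine and kidney was 8.75 on the log2(FPKM + 1) scale (SE 0.37, limma adjusted p = 1.44e-06), above that of Sis, whereas the ratio of the mean levels was 1996 for Sis and 1875 for Alpi. Akp3, a close relative of Alpi, stood at 210.5 and 176 FPKM in small intestine and at 0.275 in kidney replicate 2, with 2 reads, under the floor, in kidney replicate 1. How the counting treated reads that match both genes is not given in the sources used here, so the split between them is uncertain.

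**Figure D1:**
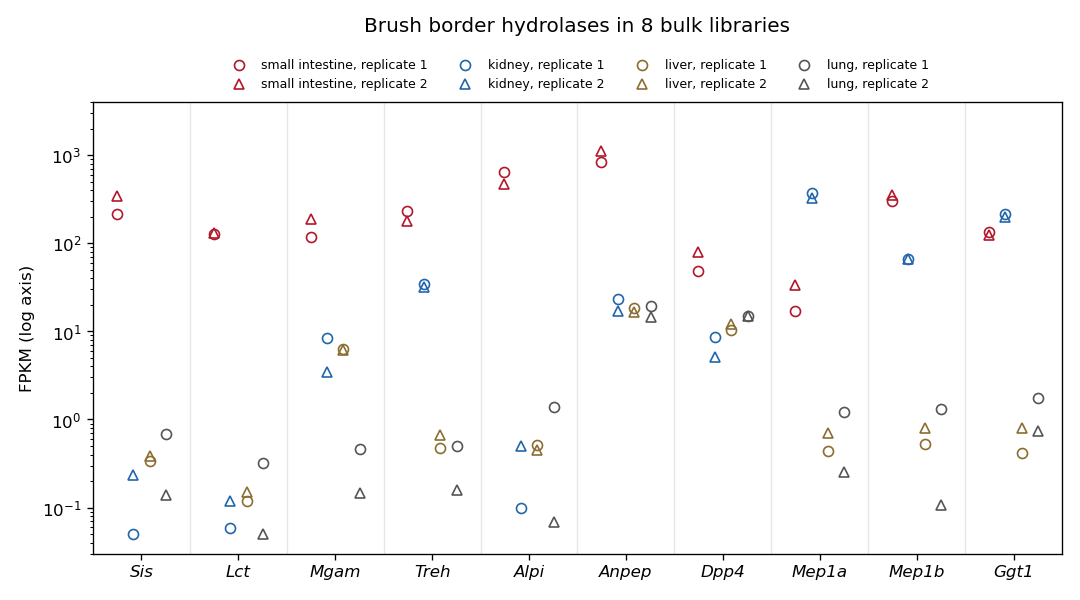
FPKM of the 10 members (horizontal axis) on a log axis in each of the 8 libraries, coloured by tissue, with circles for replicate 1 and triangles for replicate 2. Small intestine is highest for 8 members and kidney for Mep1a and Ggt1, while Sis, Lct and Alpi lie at or under 1.40 FPKM in all 6 libraries of the other tissues.

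The peptidases took up more of the range between tissues. Anpep, aminopeptidase N, which removes single amino acids from the start of peptides, lies on chromosome 7 (79821803 to 79861059, minus strand). Its level was 845 and 1128 FPKM in small intestine, 23.4 and 17.1 in kidney, 18.3 and 16.5 in liver, and 19.2 and 14.8 in lung. Anpep was the highest member in both intestine libraries, at rank 59 and 54 among all genes, and its kidney, liver and lung values overlapped one another. The log2 difference from kidney was 5.54 (SE 0.22, limma adjusted p = 1.01e-06), and kidney differed from the mean of liver and lung by 0.21 (SE 0.19, limma adjusted p = 0.378).

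Dpp4, dipeptidyl peptidase 4, which removes dipeptides and inactivates incretin hormones, lies on chromosome 2 (62330073 to 62412231, minus strand). Its level was 48.2 and 79.8 FPKM in small intestine, 8.68 and 5.09 in kidney, 10.5 and 12.1 in liver, and 15.0 in each lung library. The order was small intestine, lung, liver and kidney, with no overlap between neighbouring tissues in FPKM as deposited. The step from lung to liver turned with the scaling: liver minus lung was -0.38 (not called), but 1.15 (limma adjusted p = 0.00611, called) with median-of-ratios scaling and 0.69 with quantile normalization. An antisense gene, Gm13561, shares 3.67% of the exon bases of Dpp4, and whether the counting used strand is not given. The log2 difference between small intestine and kidney was 3.04 (SE 0.29, limma adjusted p = 9.00e-05).

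Mep1a, the alpha subunit of the metalloprotease meprin, lies on chromosome 17 (43474324 to 43502812, minus strand). Its level was 17.02 and 33.8 FPKM in small intestine, 377 and 325 in kidney, 0.443 and 0.701 in liver, and 1.22 and 0.256 in lung. Mep1a alone of the 10 was called lower in small intestine than in kidney, where it ranked 79 and 104 among all genes (log2 difference -3.81, SE 0.36, limma adjusted p = 9.00e-05). The kidney mean was 13.8 times the intestine mean.

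Mep1b, the beta subunit, is the membrane anchor with which the alpha subunit associates. Its level was 301.5 and 359 FPKM in small intestine, 67.1 and 66.1 in kidney, 0.525 and 0.805 in liver, and 1.299 and 0.106 in lung. The subunits of this protease therefore had opposite orders between the organs: small intestine was above kidney for Mep1b (log2 difference 2.29, SE 0.32, limma adjusted p = 0.000686) and below it for Mep1a. In levels per gene length, Mep1b was above Mep1a in both intestine libraries and below it in both kidney libraries.

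Ggt1, gamma-glutamyltransferase, which starts the breakdown of glutathione outside cells, lies on chromosome 10 (75561604 to 75586200, plus strand). Its level was 134 and 124 FPKM in small intestine, 215 and 199 in kidney, 0.416 and 0.795 in liver, and 1.74 and 0.731 in lung. Both kidney libraries lay above both intestine libraries, by a log2 difference of -0.68 for intestine minus kidney (SE 0.24, limma adjusted p = 0.0470), which is under the size of 1 needed for a call. With median-of-ratios scaling the difference was -1.0002 (limma adjusted p = 0.0110), and without mitochondrial genes and pseudogenes -1.19 (limma adjusted p = 0.00355), both called.

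Over the set, 8 of the 10 members were called higher in small intestine than in kidney and 1 lower. Of all genes tested, 18.8% were called higher and 10.7% lower in this comparison. The median difference of the members was 3.78, against 0.18 for all genes. Since Sis, Lct and Alpi passed the filter through small intestine alone and so had to differ, the counts and medians of the members are a description and no support for the set as a whole. Against the mean of liver and lung, all 10 members were called higher in small intestine, with differences from 2.17 for Dpp4 (SE 0.25, limma adjusted p = 0.000226) to 8.48 for Alpi, a median of 6.47 against -0.07 for all genes, and a background of 13.4% called higher and 13.3% lower.

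Kidney against the same liver and lung libraries separated the members further. The comparison shares these 4 libraries with the one before, so the values are set side by side only. Kidney was called higher for 5 of the 10 members, against 9.52% of all genes called higher and 16.5% lower: Mep1a by 7.76 (SE 0.31), Ggt1 by 6.80 (SE 0.20), Mep1b by 5.38 (SE 0.27), Treh by 4.58 (SE 0.17) and Mgam by 1.09 (SE 0.32, limma adjusted p = 0.0217). The call for Mgam rests on kidney replicate 1, without which the difference was 0.56 (limma adjusted p = 0.133), and the call was also lost with any 1 of the liver or lung libraries left out or with no filter on low values. Sis, Lct, Alpi and Anpep had differences from -0.27 to 0.21 and were not called. Dpp4 lay lower in kidney by a log2 difference of -0.87 (limma adjusted p = 0.0211), under the size needed. The difference was -1.20 without kidney replicate 1 (limma adjusted p = 0.0125, called), -0.53 without kidney replicate 2 (limma adjusted p = 0.167) and -0.29 without mitochondrial genes and pseudogenes (limma adjusted p = 0.404).

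By these calls, Sis, Lct, Alpi, Anpep and Dpp4 were higher in small intestine than in both kidney and the mean of liver and lung, with kidney not called above that mean. Treh and Mep1b were higher in small intestine than in kidney and higher in both organs than in the mean of liver and lung. The same calls were made for Mgam, although its kidney values overlapped those of liver and its kidney call was lost in the 6 alternatives above. Mep1a and Ggt1 were higher in both organs than in the mean of liver and lung without small intestine leading. The 10 levels summed to 2682 and 3043 FPKM in small intestine and to 735 and 649 FPKM in kidney, and to between 31.4 and 41.9 FPKM in liver and lung. Anpep made up 31.5% and 37.1% of the intestine sums, whereas Mep1a made up 51.3% and 50.2% of the kidney sums. In whole tissue, fewer cells of a type and less RNA per cell cannot be told apart.

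**Figure D2:**
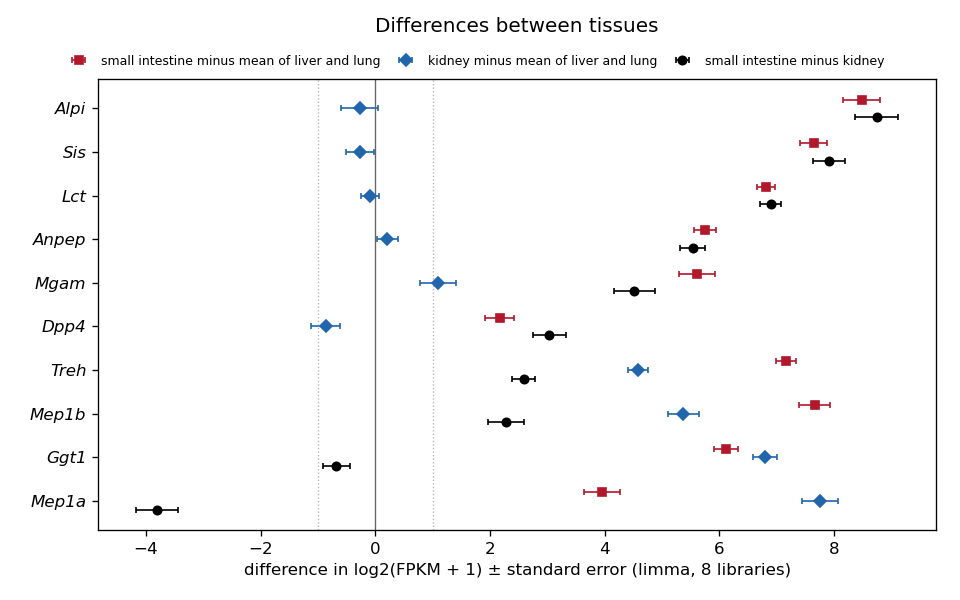
Differences in log2(FPKM + 1) with their limma standard errors over 8 libraries (horizontal axis) for the 10 members (vertical axis), for small intestine minus kidney (circles), small intestine minus the mean of liver and lung (squares) and kidney minus the mean of liver and lung (diamonds). Dotted lines mark a difference of 1 in either direction. The diamonds run from -0.87 for Dpp4 to 7.76 for Mep1a, while all squares lie above 2.

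Liver and lung, which have no digestive brush border, differed for 1 member. Mgam was called higher in liver than in lung by 2.48 (SE 0.36, limma adjusted p = 0.000425), with no overlap between the libraries. The other 9 differed by -0.45 to 0.25 and were not called, in a comparison where 7.21% of all genes were called higher and 55.5% lower in liver. For several of them the direction depended on the scaling, and with median-of-ratios scaling Anpep (1.60) was, like Dpp4, called higher in liver. Beside the lung levels of Anpep and Dpp4, the summed level of 5 T cell markers was 33.8 to 42.8 FPKM in lung, 12.9 to 14.1 in small intestine and at most 0.780 in liver and kidney. The sum of 5 endothelial markers was 299.97 to 355 FPKM in lung and at most 25.5 elsewhere, and that of 5 macrophage markers 175 to 210.3 FPKM in lung and at most 100.3 elsewhere. Their part in these levels was not tested.

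The members that were lowest outside the intestine were all under 0.26% of their intestine level there. In lung replicate 1, Sis, Lct and Alpi were between 0.244% and 0.252% of their intestine mean, and in lung replicate 2 Lct was at 0.0390% and Sis at 0.0498%, with Alpi not detectable there at this depth. In liver the shares were 0.0922% to 0.119% and 0.0818% to 0.138%, and in kidney 0.0178% to 0.0453% in replicate 1 and 0.0825% to 0.0911% in replicate 2. Enterocyte genes outside the set did not all follow them. Rbp2, a retinol-binding protein, had 0.0380% and 0.112% in kidney, 0.125% and 0.151% in liver and 0.218% and 0.0559% in lung. Fabp2, a fatty acid-binding protein, was at 0.896% and 1.04% in liver, but at 0.0355% and 0.110% in kidney and 0.226% and 0.0472% in lung. Akp3 was at 0.4296% and 0.338% in lung. It was at 0.143% in kidney replicate 2 and 0.120% in liver replicate 2, with under 3 reads in replicate 1 of both tissues. The reads behind these values were 8 and 30 for Sis in kidney, 23 and 30 in liver and 50 and 13 in lung. The source of these reads was not tested.

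Genes of the proximal tubule varied in their share in other tissues. Slc34a1, the phosphate carrier of the proximal tubule, was at 0.347% of its kidney mean in lung replicate 1 and at 0.0608% in lung replicate 2, beside 0.346% and 0.0730% for Mep1a. In small intestine Slc34a1 was at 0.0640% and 0.0667% of its kidney mean, whereas Mep1a was at 4.85% and 9.64%, above the share of Slc34a1. Other tubule genes were also at a level outside kidney: Lrp2, an endocytic receptor, was at 4.54% and 4.22% of its kidney mean in lung. Cubn, another endocytic receptor, was 5.20 and 8.50 FPKM in small intestine and 14.7 and 5.90 in kidney, and Slc5a12, a lactate carrier, 13.3 and 34.2 FPKM against 66.7 and 31.5. The kidney levels of Treh (16.8% and 15.3% of the intestine mean) and Mep1b (20.3% and 20.02%), and those of Dpp4 and Anpep in all 6 libraries, were above the shares of Sis, Lct and Alpi in the same libraries.

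**Figure D3:**
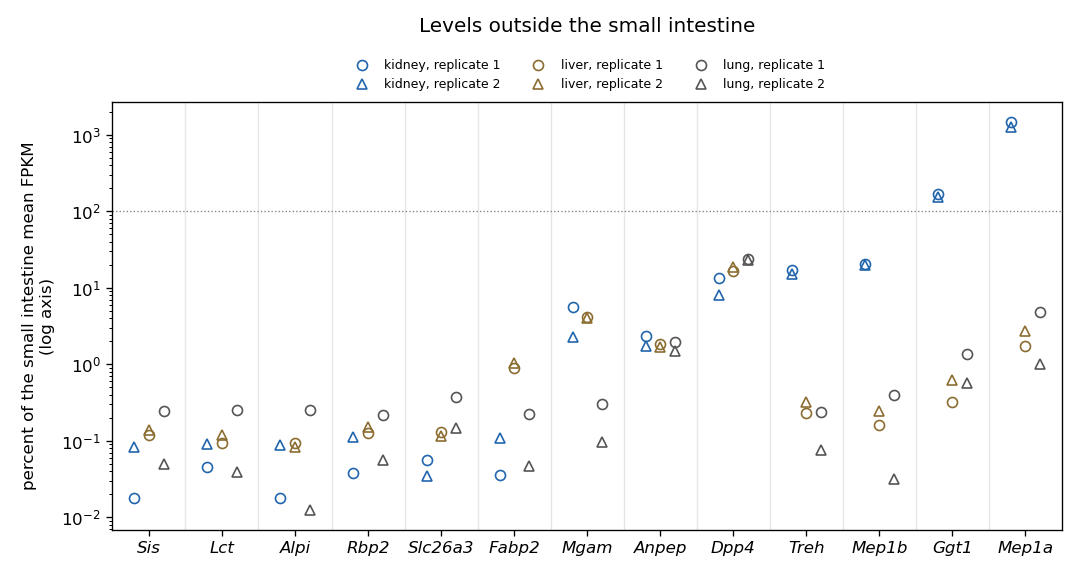
Level in each kidney, liver and lung library as a percentage of the mean small intestine FPKM, on a log axis, for the 10 members and the enterocyte genes Rbp2, Slc26a3 and Fabp2, with circles for replicate 1 and triangles for replicate 2. Sis, Lct and Alpi lie under 0.26% throughout, Anpep between 1.497% and 2.37%, and Mep1a and Ggt1 in kidney above the dotted line at 100%.

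The 2 intestine libraries did not differ in one direction for all members. Replicate 2 was higher for Mep1a (1.99 times), Dpp4 (1.66 times), Sis (1.59 times), Mgam (1.59 times) and Anpep (1.34 times). It was close for Mep1b (1.19 times), Lct (1.03 times) and Ggt1 (0.925 times), and replicate 1 was higher for Treh (1.3 times) and Alpi (1.35 times). On the log2 scale these run from -0.43 to 0.95, whereas the central 95% of all genes lay between -0.80 and 0.71. With 1 library on each side this difference has no test.

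Some genes outside the set also differed between the same libraries. Fabp6, a bile acid-binding protein of the ileum, was 0.223 FPKM in replicate 1 and 25.4 in replicate 2, and Slc10a2, the ileal bile acid carrier, 0.309 and 1.62. Fabp1, a fatty acid-binding protein of the proximal small intestine, was 4629 and 2643 FPKM. The other genes listed for this part were Slc40a1 at 7.54 and 4.75, Cybrd1 at 0.680 and 0.463, and the factor Gata4 at 25.6 and 25.2. Of these, Gata4 alone was close between the libraries. The hydrolases Enpp7, which splits sphingomyelin, and Naaladl1, a peptidase, were 51.9 and 195 FPKM and 99.7 and 266 FPKM. Other hydrolases were close or lower in replicate 2, with Ace at 162 and 159.5, Akp3 at 210.5 and 176 and Tmprss15 at 13.0 and 8.95 FPKM. The summed level of 8 pancreatic acinar genes was 2523 FPKM in replicate 1 and 1140.25 in replicate 2, against at most 5.12 in the other tissues. Their part in the members' differences was not tested. With either intestine library left out, every member kept its call or lack of one against kidney and against the mean of liver and lung.

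**Figure D4:**
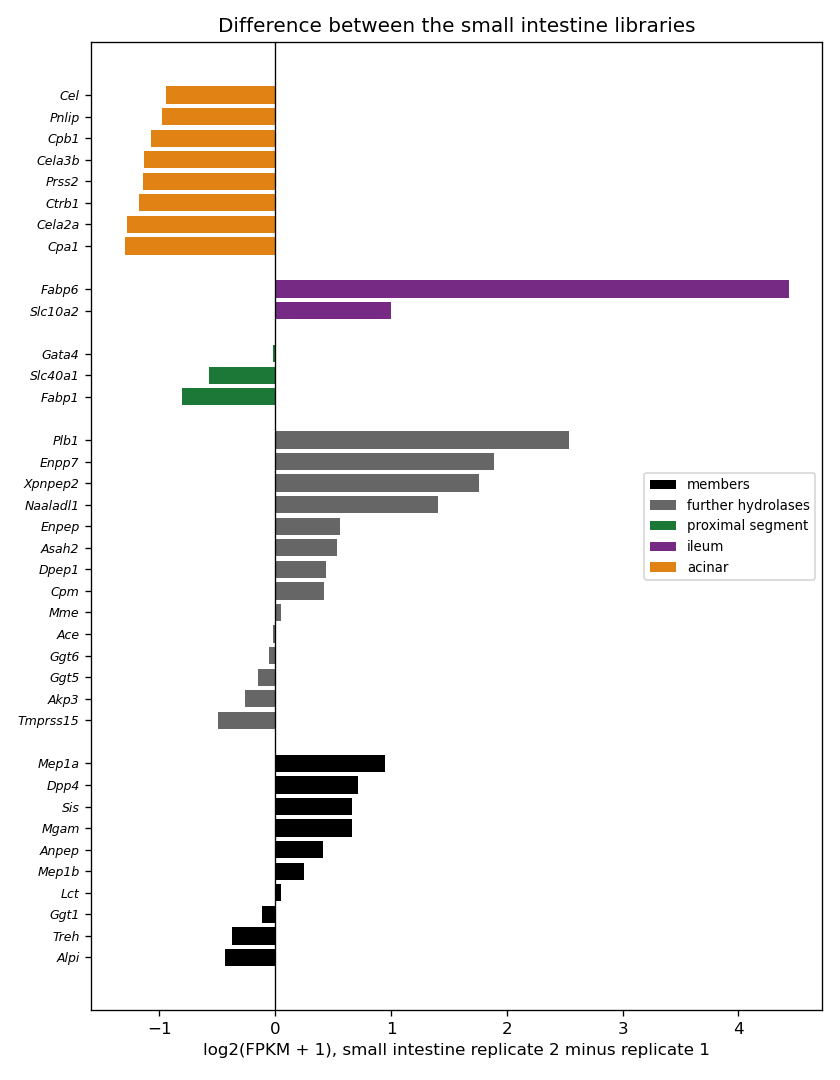
Difference in log2(FPKM + 1) between small intestine replicate 2 and replicate 1 (horizontal axis) for the 10 members, for most further hydrolases with a mean of at least 1 FPKM in small intestine, for genes of the proximal intestine and the ileum, and for pancreatic acinar genes. Bars are single differences with no error; members run from -0.43 for Alpi to 0.95 for Mep1a, and all 8 acinar genes lie below 0.

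Further hydrolases of brush borders, from a list chosen by function, followed the members in part. Of 21 listed, 19 were in the table and 16 were tested. Between small intestine and kidney 12 were called higher, 2 lower and 2 neither, against 18.8% higher and 10.7% lower among all genes, and the median difference was 2.67 against 0.18. These counts are no support for the list as a whole: Naaladl1, Tmprss15, Enpp7 and Akp3 (4 of the 16) passed the filter through small intestine alone and Folh1 through kidney alone, so they had to differ. Enpep, which removes acidic residues, was 89.2 and 132 FPKM in small intestine and 18.2 and 10.999 in kidney (log2 difference 2.85, SE 0.26). Naaladl1 had a log2 difference of 7.08 (SE 0.42), and Tmprss15, the enteropeptidase that activates trypsin, was 13.0 and 8.95 FPKM in intestine and not detectable in kidney at this depth (0 and 1 reads).

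Folh1 and Alpl were the 2 called lower. Folh1, which releases glutamate from folate, was not detectable in small intestine at this depth (0 and 1 reads) and 26.4 and 16.7 FPKM in kidney. Alpl, the tissue-nonspecific alkaline phosphatase, was 0.397 and 0.219 FPKM against 63.7 and 50.2, the opposite order to Alpi and Akp3. The alkaline phosphatases thus divided between the organs without overlap.

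Ace, angiotensin-converting enzyme, is a peptidase of brush borders and of lung vessels. It was 162 and 159.5 FPKM in small intestine, 159 and 161 in lung, 21.8 and 16.6 in kidney, and 0.454 and 0.476 in liver, with overlapping values in small intestine and lung. Dpep1, a dipeptidase, was 85.5 and 116 FPKM in small intestine, 50.3 and 42.5 in kidney, and 55.9 and 55.2 in lung. Against the mean of liver and lung, 12 of the 16 were called higher and 1 lower in small intestine (13.4% and 13.3% of all genes), and 5 were called higher in kidney (9.52% of all genes), Folh1, Dpep1, Asah2 and Alpl among them.

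The carriers that take up the products of digestion were split more evenly. Of 12 tested, 5 were called higher and 4 lower in small intestine than in kidney (18.8% and 10.7% of all genes), with a median difference of 0.93 against 0.18 for all genes. In kidney 10 were called higher than in the mean of liver and lung, against 9.52% of all genes. Among them, the glucose carrier Slc2a2, was 25.1 and 16.4 FPKM in kidney and 29.1 and 30.7 in liver, with 0.249 and 0.0699 in lung. Slc5a1, the sodium-glucose carrier of the gut, was 312 and 524 FPKM in small intestine and 15.8 and 9.90 in kidney, and its kidney relative Slc5a2 was 117 and 76.8 FPKM in kidney and 0.184 in intestine replicate 1, with 2 reads in replicate 2. The peptide carriers divided alike between these organs. Slc15a1 was 42.8 and 64.5 FPKM in small intestine against 0.0573 and 0.142 in kidney. Slc15a2 was 7.72 and 5.88 FPKM in kidney and 0.421 in intestine replicate 1, with 2 reads in replicate 2. In lung, however, Slc15a2 was 4.44 and 5.05 FPKM. Of the 12, Slc15a1 passed the filter through small intestine alone and Slc5a2 through kidney alone.

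Several amino acid carriers were at a high level in both organs. Slc6a19, for neutral amino acids, was 85.8 and 138 FPKM in small intestine and 80.6 and 48.3 in kidney (log2 difference 0.79, SE 0.32, limma adjusted p = 0.0775). Slc3a1, the heavy chain of the cystine carrier, was 26.9 and 46.2 FPKM against 116 and 87.4 (log2 difference -1.49, SE 0.28), and its partner Slc7a9 was 68.8 and 88.6 against 47.5 and 38.2 (log2 difference 0.86, SE 0.22, not called).

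Transcription factors with known sites in intestinal hydrolase promoters were listed for the motifs above. Of 10 tested, 7 were called higher in small intestine than in kidney, against 18.8% of all genes, but 4 of them (Cdx1, Cdx2, Hnf4g and Isx) passed the filter through small intestine alone and so had to differ. Cdx1 was 55.6 and 62.2 FPKM in small intestine, and Cdx2, its paralog and a regulator of intestinal identity, was 23.9 and 27.5. Gata4 was 25.6 and 25.2 FPKM in small intestine. In kidney all 3 were under 3 reads in both libraries and not detectable at this depth. Hnf4g was 43.7 and 74.1 FPKM in small intestine and 1.65 and 0.615 in kidney. Hnf4a was high in both organs, at 58.7 and 79.3 FPKM in small intestine and 93.8 and 62.2 in kidney (log2 difference -0.16, SE 0.25, limma adjusted p = 0.634), and in liver at 61.5 and 60.3.

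The genes nearest to 3 members were found by Euclidean distance of log2(FPKM + 1) over the 8 libraries among the 16328 genes. For Sis they were Muc3 (distance 0.45), 2010106E10Rik (0.54) and Myo1a (0.63). Muc3 is a membrane mucin and Myo1a a myosin of microvilli. For Ggt1 they were Dnase1 (1.53), Cgref1 (1.95) and Slc6a19 (2.68), of which Dnase1 was 81.3 and 68.2 FPKM in small intestine and 119.8 and 144 in kidney. For Anpep they lay further off, namely Dgat1 (3.38), Cbr1 (3.70) and Dhrs11 (3.76), with Dgat1 at 318 and 319.9 FPKM in small intestine. This distance counts the level as well as the pattern: by Pearson correlation over the same 8 libraries, Mro (0.9994), Rmdn3 (0.9988) and Slc5a4a (0.9986), chosen after their values were seen, were nearest to Anpep.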

How the data were processed

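The authors deposited FPKM values for 52195 genes in 8 bulk libraries, 2 per tissue. By the study's methods, bbduk sorted reads by index and STAR 2.5.3a mapped them to GRCm38 (default settings, Ensembl annotation). The authors took the FPKM values from DESeq2. The counting program and its treatment of strand and shared reads are not given in the sources used here. Symbols were matched to GENCODE M21 (51844, 99.3%), whose exon lengths turned FPKM steps back into reads; 94.5% to 96.1% of values up to 50 reads were whole within 0.02. Depth limits only the low values, under 3 reads being read as not detectable.

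Values were tested as log2(FPKM + 1), so differences of low genes are understated, with limma 3.58.1 in R 4.3.3 (eBayes with trend, all 8 libraries, adjustment over 16328 genes), after a test on simulated data. Pseudocount, filter, scaling, left-out libraries and a replicate block were varied. Named genes were the members, the 3 function lists and the 3 nearest genes of Sis, Anpep and Ggt1. Some listed genes are not reported here. Marker, segment and acinar genes were named with their values, and their part in the levels of the members was not tested. The members and lists were chosen with earlier results of these data known. By the study's text the replicates of a tissue come from different mice, and the labels do not tie replicate numbers to mice. Promoter letters came from RefSeq GRCm38.p6 and figures from matplotlib 3.10.9.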

Additional observations from a re-analysis of the deposited data

How the results depend on the processing

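Of 680 values for the members (40 results under 17 alternatives), 639 kept their direction and their side of the threshold, 27 changed direction, 1 of them with a call (Dpp4 in liver against lung with median-of-ratios scaling). Of the rest, 8 gained a call and 6 lost one. With quantile normalization Ggt1 in small intestine against kidney was -1.28 and called. The genes called between liver and lung numbered 10236, but 6078 with median-of-ratios scaling and 5733 with quantile normalization. Leaving out 1 library gave 4519 to 5218 calls for small intestine against kidney, 4198 to 4357 for small intestine against liver and lung, 4064 to 4895 for kidney against liver and lung, and 9684 to 10294 for liver against lung.

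All values that changed direction were in kidney against liver and lung or liver against lung, and the cause was not tested. For liver against lung, a pseudocount of 0.1 gave 0.089 for Sis and 0.21 for Alpi. Median-of-ratios scaling gave 0.41 for Sis, 0.16 for Lct, 0.43 for Alpi, 1.15 for Dpp4, 0.50 for Mep1a and 0.28 for Ggt1. Without mitochondrial genes and pseudogenes Sis was 0.0025. Quantile normalization gave 0.85 for Sis, 0.58 for Lct, 0.82 for Alpi, 0.69 for Dpp4, 0.91 for Mep1a and 0.68 for Ggt1, and calls for Treh (1.11), Anpep (1.01) and Mep1b (1.01). With 1 library left out, liver against lung ranged from -0.31 to 0.26 for Sis, -0.22 to 0.11 for Lct, -0.69 to 0.47 for Alpi, -0.14 to 0.22 for Anpep, -0.50 to 0.32 for Mep1a and -0.47 to 0.59 for Mep1b. For kidney against liver and lung the range was -0.56 to 0.025 for Alpi and -0.0011 to 0.43 for Anpep.

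Same-numbered libraries of different tissues did not deviate together (correlations of -0.22 to 0.05 over 6 pairs of tissues). An absent shared deviation does not settle whether same-numbered libraries come from the same mouse. With the replicate block, the calls numbered 4805, 4346, 4250 and 10229, against 4823, 4355, 4249 and 10236 without it, and no member changed its call. Beyond this, 2 libraries per tissue limit the precision of every value.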
